A study of Mus musculus with 4 samples.

Results

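The genes described here are the antimicrobial granule genes of the Paneth cell: every gene whose symbol begins with Defa, the defensin-type genes AY761184, Gm14851 and Gm15293, and Lyz1, Ang4, Mmp7, Itln1 and Pnliprp2. Of 31040 genes in the count matrices, 30 matched these names and 26 had at least 20 UMIs over the 4 libraries, where a UMI is 1 counted RNA molecule. The 26 comprise 21 defensin-type genes and 5 other granule genes. Gm15284 is no symbol of the matrices. Defa2, the lowest gene kept, had 73 UMIs, and the 4 genes left out had 1 (Defa33) or 2 UMIs (Defa25, Defa31 and Defa37).

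Organoids grown from mouse intestinal crypts were dissociated, and their cells were sequenced in 4 droplet libraries. All organoids came from 2 mice aged 10 weeks with floxed Cbl and Cblb alleles (Cbl flox/flox, Cbl-b flox/flox) and R26Cre ERT2, a Cre recombinase that tamoxifen activates, at a locus active in most cell types. Knockout organoids (Cbl and Cblb deleted) received 400 nM 4-hydroxytamoxifen over 3 days, and control organoids had the same alleles and Cre without the drug. Each group has 2 libraries, the numbers 1 and 2 mark the mouse, and effects of the drug itself cannot be told apart from those of the deletion, because no group received the drug without the floxed alleles. Cbl and Cblb encode ubiquitin ligases that mark activated receptor tyrosine kinases for degradation.

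Paneth cells sit between the stem cells at the crypt base and release dense granules into the crypt lumen. The granules hold alpha-defensins, called cryptdins in mice, which are made as precursors and damage bacterial membranes. In the mouse the metalloprotease Mmp7 cuts the precursors to their active form. Wnt signals acting through TCF factors are known to drive cryptdin and Mmp7 expression.

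The libraries held 28597336 and 35592468 UMIs in knockouts 1 and 2, and 27855911 and 22139560 UMIs in controls 1 and 2. Of 5602 barcodes, 173 had under 500 genes and 67 were removed as likely doublets, which left 1628 and 1903 knockout cells and 1149 and 682 control cells. Only 2 barcode sequences occurred in more than 1 library. Cbl had 12.4 and 10.5 UMIs per 1000000 UMIs of its library (CPM) in knockouts 1 and 2, against 17.1 and 20.1 CPM in controls 1 and 2. Cblb had 3.40 and 0.464 CPM in knockouts, against 8.49 and 3.96 CPM in controls. Which exons are deleted is not given in the sources used here, so a tag outside them checks nothing.

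The defensin-type genes form a cluster of near copies on chromosome 8, and their letters decide how far each can be read alone. Below is the end of the coding sequence of the most abundant gene, Defa24, of Defa22, and of AY761184 and Gm14851, 2 genes of the cryptdin-related type. They are shown because the results turn on these 4 genes and on the difference between both types. Sequences are those of GENCODE M21 transcripts (GRCm38), 5′ to 3′, ending before the stop codon, and capitals mark cysteine codons. Defa24 lies at chr8:21735270-21735374 (plus strand), Defa22 at chr8:21163048-21163152 (plus strand), AY761184 at chr8:21702631-21702735 (minus strand) and Gm14851 at chr8:21095077-21095181 (minus strand).
Defa24: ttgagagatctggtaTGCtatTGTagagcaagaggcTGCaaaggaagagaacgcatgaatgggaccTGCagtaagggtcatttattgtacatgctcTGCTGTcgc
Defa22: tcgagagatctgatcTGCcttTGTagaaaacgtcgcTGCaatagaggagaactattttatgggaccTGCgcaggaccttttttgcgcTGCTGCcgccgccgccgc
AY761184: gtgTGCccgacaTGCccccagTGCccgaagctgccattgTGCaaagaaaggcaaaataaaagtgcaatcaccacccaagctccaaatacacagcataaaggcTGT
Gm14851: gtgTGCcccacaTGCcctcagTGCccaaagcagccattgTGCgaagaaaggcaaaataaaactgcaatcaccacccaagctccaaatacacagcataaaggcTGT
In Defa24 and Defa22 the 6 cysteine codons of the whole gene fall in this stretch, where they encode the folded defensin. AY761184, Gm14851 and Defa29 have 11 cysteine codons each, partly in short repeats, and are 96.6 to 97.4% identical to each other over their coding sequences. AY761184 and Defa22 share 62.6% of aligned coding positions, and Defa22 and Defa24 share 81.3%.

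Over the 210 pairs of defensin-type genes, coding identity ranged from 61.6 to 100% with a median of 82.8%. Coding sequences were identical for Defa3 and Defa17, for Defa20 and Defa32, and for Defa2, Defa23 and Defa36 each with 1 gene under the minimum. Of all 50-base stretches of a transcript, 71.9% occurred in no other gene for Defa24, 66.5% for AY761184, 47.6% for Defa30, 44.4% for Gm14851 and 25.1% for Defa22. The share was 16.0% for Defa34, 8.05% for Defa17, 5.25% for Defa23, 0.306% for Defa5, and 0% for Defa2, Defa20 and Defa32. Counts of single defensin-type genes with low shares are therefore uncertain, since reads from a copy can be dropped or placed on another gene. Lyz1, Ang4, Mmp7, Itln1 and Pnliprp2 had shares of 83.9 to 100%. Gm14851, Defa29, AY761184 and Mmp7 each overlap another annotated gene, and the strand setting of the counting is not stated.

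RefSeq promoter sequences (GRCm38.p6) were found for 12 defensin-type genes, and 3 are shown because their genes differ in the letters they hold. Capitals mark the motifs searched in the 250 bases before the RefSeq start: CTTTGAT, read on the other strand as ATCAAAG, a form of the TCF site, and TATAAA. The windows are chr8:21162027-21162276 (plus strand) for Defa22, whose promoter letters are identical to those of Defa21, chr8:21134400-21134649 (plus strand) for Defa30 and chr8:21096051-21096300 (minus strand) for Gm14851.
Defa22: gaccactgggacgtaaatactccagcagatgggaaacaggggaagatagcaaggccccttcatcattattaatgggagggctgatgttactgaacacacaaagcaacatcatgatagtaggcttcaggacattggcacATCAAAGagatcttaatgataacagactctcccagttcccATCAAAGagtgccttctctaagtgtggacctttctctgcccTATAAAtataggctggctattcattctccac
Defa30: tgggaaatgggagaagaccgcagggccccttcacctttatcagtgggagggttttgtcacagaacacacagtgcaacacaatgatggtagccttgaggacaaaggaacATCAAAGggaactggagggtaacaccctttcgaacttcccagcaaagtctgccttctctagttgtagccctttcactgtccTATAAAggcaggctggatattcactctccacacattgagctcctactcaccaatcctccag
Gm14851: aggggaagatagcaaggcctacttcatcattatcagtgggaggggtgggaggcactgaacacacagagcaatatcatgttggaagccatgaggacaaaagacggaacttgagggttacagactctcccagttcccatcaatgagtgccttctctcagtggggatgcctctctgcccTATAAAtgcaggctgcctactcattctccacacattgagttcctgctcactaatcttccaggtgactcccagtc
CTTTGAT stood on either strand in 11 of 12 defensin-type promoters, always as ATCAAAG, against 3.21% of 32851 promoters of the same length. The exception was Gm14851. TATAAA or TTTATA stood in 11 of 12, all but Defa28, against 12.4% of all promoters. These promoters are copies of each other with 51.6 to 100% identity, so they are not independent cases, and a match is a description of letters only.

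The 26 genes held 3.02% of all UMIs, and Defa24 alone held 45.5% of those. Each UMI counts 1 molecule regardless of transcript length, so levels of different genes are set side by side as UMIs. Among the defensin-type genes this order is limited by reads lost to or gained from near copies, since the share of stretches of their own differs so widely. After Defa24 with 1570568 UMIs came the lectin Itln1, which binds microbial sugars, with 525237, the lysozyme Lyz1 with 470327, Defa30 with 305069 and Defa22 with 137217. Ang4, a secreted antimicrobial ribonuclease, had 88554, Defa17 85582, Defa21 82273, Mmp7 60681 and AY761184 20903 UMIs. The other 16 genes lay between 73 and 19771 UMIs.

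Cells were clustered without the 26 genes and named from fixed markers that exclude them. The Paneth-like class was 1 cluster of 269 cells, led by Clps, Gm7861, Ccl6, Gm15292, Mptx2 and Spink4. Its top 10 genes held 4 Paneth markers and 2 goblet markers, Spink4 and Ramp1. Gm7861 and Gm15292 are further defensin genes (Defa43 and Defa40 in RefSeq) outside the name rule and stayed in the clustering. The goblet-like class held 3 clusters of 84, 168 and 103 cells, the last led by Reg4, Mptx2 and Gm15292. Another 3 clusters whose best match was Paneth or goblet had no marker of that best match among their top 10 genes. They stayed unnamed and count among the other cells. These classes come from a finer resolution of the clustering, chosen after the coarser one had put Paneth and goblet cells into a single cluster.

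The 26 genes took up 43.7% and 38.9% of the UMIs of Paneth-like cells in knockouts 1 and 2, against 36.3% and 29.9% in controls 1 and 2. Goblet-like cells gave them 8.94% and 12.3% in knockouts, against 12.5% and 11.2% in controls. In enterocyte-like cells, which should lack granules, the share was 0.0495% and 0.0557% in knockouts, against 0.0448% and 0.0363% in controls. In every library the share was highest in Paneth-like and lowest in enterocyte-like cells, as a description with no test, since the classes were made by clustering. The difference of means in Paneth-like cells was 8.18 percentage points (41.3 ± 3.45% in knockouts and 33.1 ± 4.49% in controls, SD, n = 2 each, two-sided exact permutation p = 0.333, the smallest possible), and it had the same sign in both mice. With the 26 genes kept in the clustering it was −1.07 percentage points.

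Within the goblet-like class the 3 clusters had granule gene shares of 8.92%, 6.40% and 20.7%. Of the 3 unnamed clusters, 1 of 200 cells led by Rnase1, Ccl9 and Bhlha15 had 16.8%, 1 of 265 cells led by the secretory fate genes Atoh1 and Dll1 had 2.39%, and 1 of 79 cells led by Clu had 0.429%. Many granule transcripts were thus counted outside the Paneth-like class too.

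**Figure D1:**
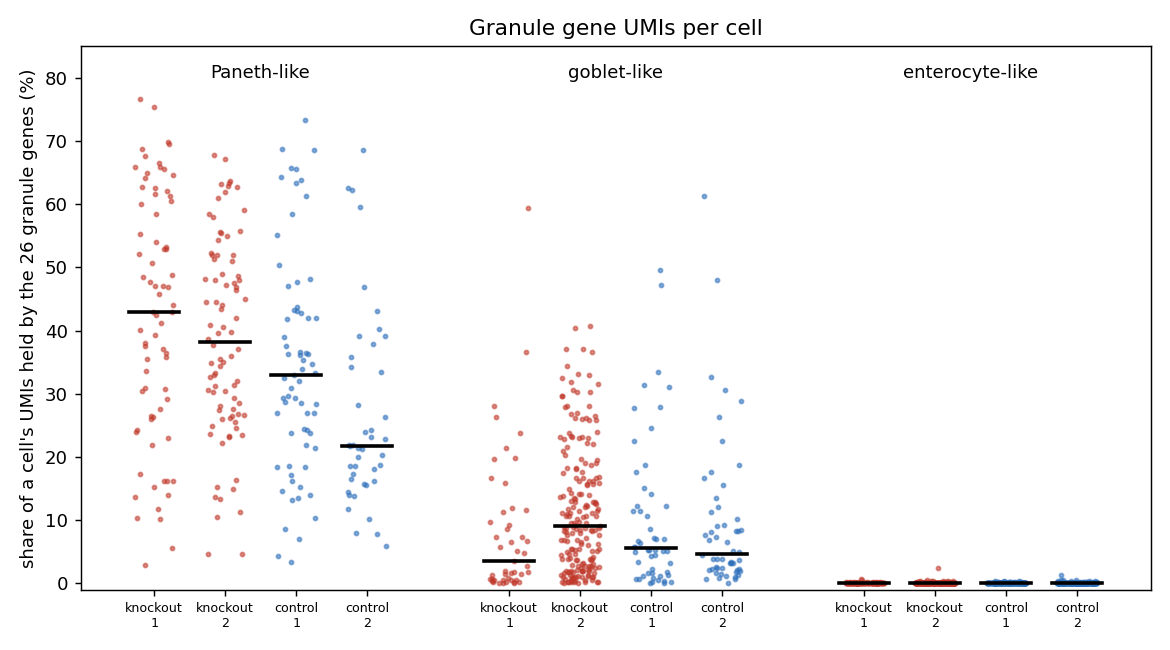
Share of each cell's UMIs (%) held by the 26 granule genes in Paneth-like, goblet-like and enterocyte-like cells of knockouts 1 and 2 (red) and controls 1 and 2 (blue). Points are cells and bars are medians, which in Paneth-like cells were 43.0 and 38.2% in knockouts, against 33.0 and 21.7% in controls.

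Single Paneth-like cells spanned 2.99 to 76.5% in knockout 1 and 4.65 to 67.7% in knockout 2, against 3.47 to 73.2% in control 1 and 5.96 to 68.5% in control 2. The plot of shares per cell shows this overlap between libraries. Median depth in these cells was 14326 and 12717.5 UMIs in knockouts, against 17013 and 29920 UMIs in controls, and its part in the shares was not tested.

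Low levels of all the main granule transcripts were counted in enterocyte-like cells as well. Defa24 had 199 and 151 CPM there in knockouts, against 179.9 and 110.4 CPM in controls, while Paneth-like cells had 183900 and 165200 CPM in knockouts, against 158000 and 139600 CPM in controls. A Defa24 UMI was found in 72.3 and 73.4% of enterocyte-like knockout cells and in 89.5 and 68.9% of control cells, at median depths of 6019.5 and 9225 UMIs in knockouts and 10107 and 15208 UMIs in controls. With every cell thinned to 5000 UMIs the shares were 58.2 and 44.9% in knockouts, against 60.9 and 36.6% in controls. A single Defa24 UMI was therefore common in cells of another type. Free RNA released by other cells and misplaced cells can add such counts, and their part was not tested.

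Ratios to Defa24 differed by class for some genes, most of all for Pnliprp2. Per 100 Defa24 UMIs, Itln1 had 28.5 and 30.4 UMIs in enterocyte-like knockout cells and 34.9 and 45.1 in control cells, close to its 32.9 and 31.8 in Paneth-like knockout cells and 31.2 and 30.4 in Paneth-like control cells. Lyz1 and Mmp7 also had ratios of the same order in both classes. Defa17 had more UMIs per 100 Defa24 UMIs in enterocyte-like than in Paneth-like cells of every library, with 10.4 and 12.5 in enterocyte-like knockout cells and 21.3 and 10.5 in control cells. Its Paneth-like ratios were 4.98 and 3.57 in knockouts, against 9.34 and 5.79 in controls. Ang4 had 1.04 and 4.66 in enterocyte-like knockout cells and 4.74 and 6.56 in control cells, where Paneth-like cells had 5.59 and 6.71 in knockouts, against 4.59 and 7.68 in controls. Pnliprp2, a lipase related to pancreatic lipase, had 54.9 and 156 UMIs per 100 Defa24 UMIs in enterocyte-like knockout cells and 37.3 and 107 in control cells. In Paneth-like cells it had 0.313 and 0.155 in knockouts, against 0.332 and 0.151 in controls. By level, Pnliprp2 reached 109 and 236 CPM in enterocyte-like knockout cells, against 67.1 and 118 CPM in control cells, and 575 and 256 CPM in Paneth-like knockout cells, against 525 and 211 CPM in control cells. Among the 6 genes drawn, Pnliprp2 had the widest gap in this ratio between enterocyte-like and Paneth-like cells.

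**Figure D2:**
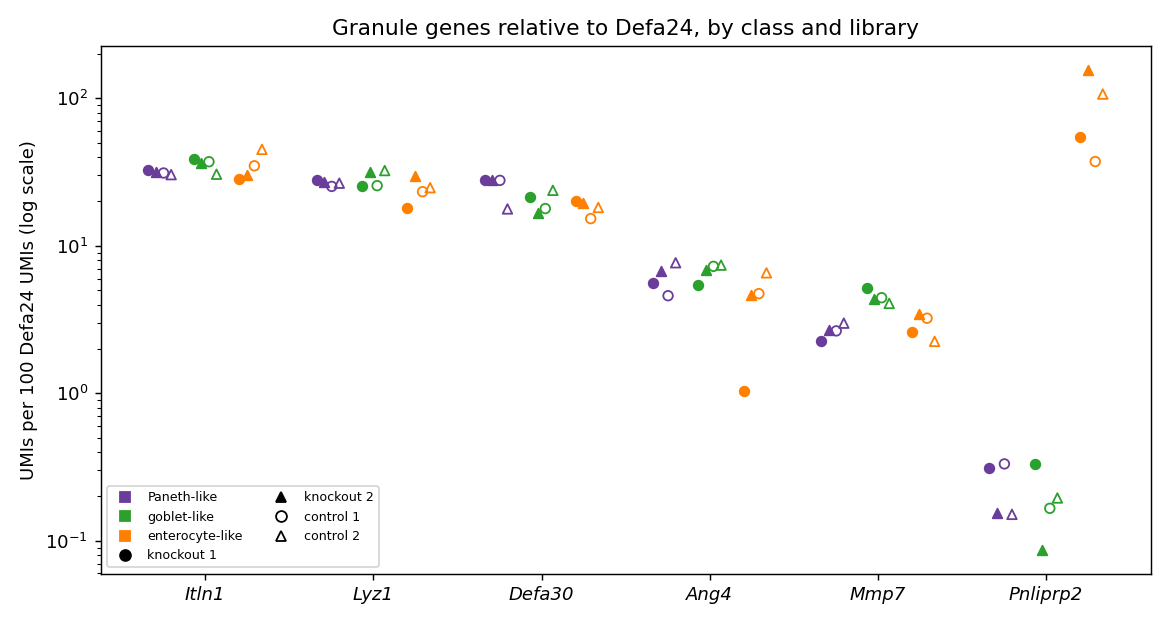
UMIs of 6 granule genes per 100 Defa24 UMIs (log scale) in Paneth-like, goblet-like and enterocyte-like cells. Filled symbols are knockouts 1 and 2 and open symbols are controls 1 and 2. Itln1 lies between 28.5 and 45.1 in all classes, whereas Pnliprp2 lies between 37.3 and 156 in enterocyte-like cells and between 0.151 and 0.332 in Paneth-like cells.

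Summed over all cells, the granule genes took 2.38 and 3.31% of UMIs in knockouts 1 and 2, against 3.14 and 3.15% in controls 1 and 2. The difference of means was −0.298 percentage points (two-sided exact permutation p = 1, where the smallest p that 2 against 2 libraries allow is 0.333). The groups overlapped, and the sign differed between mice. In such sums a change in the number of Paneth cells and a change in RNA per cell cannot be told apart. By the edgeR quasi-likelihood test with the group alone, 0 of 26 genes passed an adjusted p of 0.05, and 0% of all 13252 genes did. With unadjusted p under 0.05 there were 3 of 26, where 1148 of the 13252 genes had such a p. DESeq2 called 1, Defa17, where it called 19 of 19341 genes higher and 100 lower. The median fold change was −0.08 on the log2 scale, against −0.02 for all genes.

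With the replicate number as a block, which the shared mouse of each pair warrants, 2 of 26 genes were higher and 4 were lower. Over all genes 4.41% were called higher and 8.3% lower, and the counts of granule genes stand beside it. The 2 higher were AY761184 and Gm15293, and the 4 lower were Defa17, Defa20, Defa32 and Pnliprp2.

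Defa17, a cryptdin gene, had 529 and 515 CPM over all cells in knockouts 1 and 2, against 1252 and 768 CPM in controls 1 and 2. Both knockouts lay below both controls. The log2 fold change was −0.95 ± 0.16 with the block (SE, adjusted p = 0.0204), and the group-only fit gave −0.98 ± 0.24 (adjusted p = 0.559). Defa20 had 21.6 and 19.1 CPM in knockouts, against 47.6 and 23.8 CPM in controls, and Defa32 8.65 and 7.07 CPM in knockouts, against 19.7 and 9.47 CPM in controls. These copies, with identical coding sequences and no stretch of their own, gave −0.78 ± 0.19 and −0.87 ± 0.19 with the block (adjusted p = 0.0480 and 0.0387), and the groups of neither overlapped. Pnliprp2 had 36.9 and 36.7 CPM in knockouts, against 44.8 and 51.2 CPM in controls (−0.42 ± 0.08 with the block, adjusted p = 0.0282). In enterocyte-like cells alone its level was higher in the knockout of each mouse, at 109 and 236 CPM, against 67.1 and 118 CPM.

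AY761184 had 293 and 186 CPM over all cells in knockouts, against 159 and 43.9 CPM in controls. It gave 1.43 ± 0.26 on the log2 scale with the block (adjusted p = 0.0243) and 1.21 ± 0.63 with the group alone (adjusted p = 0.583). Without control 2, the library with the lowest level, the group-only value was 0.59. Gm15293 had 50.7 and 47.3 CPM in knockouts, against 30.9 and 33.9 CPM in controls (0.56 ± 0.09 with the block, adjusted p = 0.0162). As a share of the UMIs of all 26 genes, AY761184 made up 1.23 and 0.562% in knockouts, against 0.507 and 0.139% in controls. The same share for Defa17 was 2.22 and 1.56% in knockouts, against 3.99 and 2.44% in controls. For Defa24 it was 43.3 and 44.8% in knockouts, against 46.3 and 47.5% in controls, and for Lyz1 13.5 and 14.4%, against 13.2 and 13.1%.

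Paneth-like cells made up 4.48% (exact 95% interval 3.53 to 5.61) and 4.52% (3.63 to 5.55) of cells in knockouts 1 and 2. In controls 1 and 2 they made up 5.83% (4.55 to 7.35) and 6.31% (4.60 to 8.40). The knockout share was lower in both mice, by 1.57 percentage points on average (two-sided exact permutation p = 0.333, the smallest possible). With the 26 genes kept in the clustering, the difference turned to 1.28 percentage points in the other direction. The intervals cover counting error only. The unnamed cluster of 200 cells led by Rnase1, whose best match was Paneth, is not in these shares. It made up 2.89 and 2.84% of cells in knockouts 1 and 2, against 6.09 and 4.25% in controls 1 and 2. This cluster counts among the other cells, and its part in their values was not tested.

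Inside the Paneth-like class, 7 of 26 granule genes rose with the group alone and none fell, where 0.272% of the 6617 genes tested were called higher and 0.0605% lower. The 7 were AY761184, Defa23, Gm15293, Gm14851, Defa5, Defa34 and Defa22. With the replicate block 17 rose and 1, Defa17, fell, against a background of 1.04% higher and 0.605% lower. The median fold change of the 26 genes was 0.55 on the log2 scale, against −0.01 for all genes. Both knockouts lay above both controls for 16 of 26 genes and below for 0, where 8.02% of all genes had both knockouts above both controls and 31.5% had both below. Shares of a fixed total are bound to each other, so a library in which the granule genes take more leaves less for the rest. The other sets of cells follow, with the share of all genes in brackets. Counts near that share are nothing particular to granule genes. Goblet-like cells had 3 above and 7 below (20.4% and 15.4% of all genes), other cells 1 above and 4 below (23.4% and 18.7%), and all cells 4 above and 6 below (21.9% and 19.2%). These counts depend on the class: with the 26 genes kept in the clustering, 0 were called and their median was −0.10. They were 0 as well without knockout 1 or without knockout 2, 12 higher and none lower without control 1, and 5 higher and 1 lower without control 2.

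**Figure D3:**
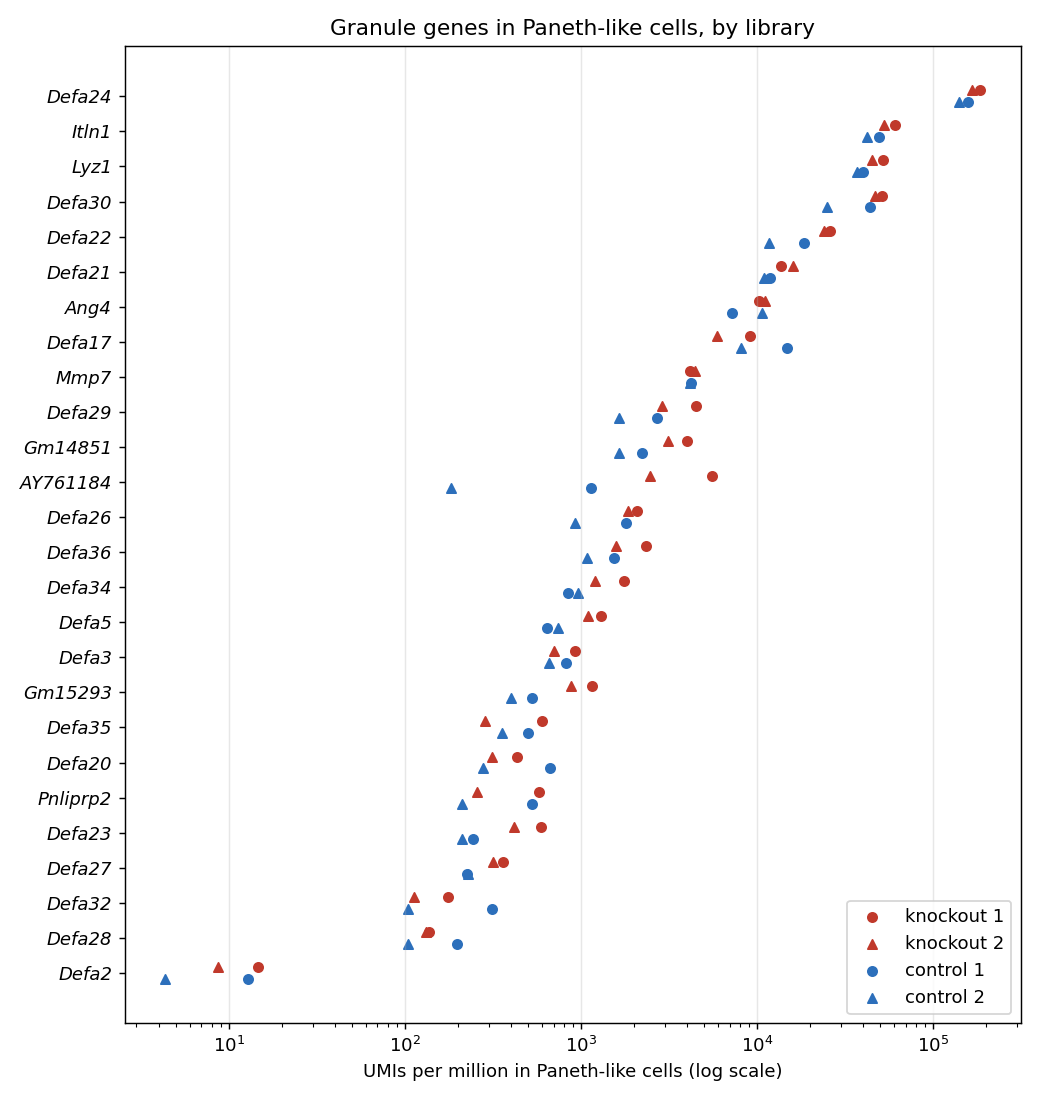
Levels (CPM) in Paneth-like cells (log scale) for each of the 26 granule genes, with knockouts 1 and 2 in red above controls 1 and 2 in blue. Levels span from Defa2, at 4.38 to 14.7 CPM, to Defa24, at 139600 to 183900 CPM, and AY761184 has the widest gap between groups as a fold change.

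Among the cryptdin-related genes, AY761184 had 5563 and 2478 CPM in Paneth-like knockout cells, against 1137 and 184 CPM in control cells. Its log2 fold change was 2.74 ± 0.44 (adjusted p = 0.00131), and it fell short of the threshold by DESeq2 (adjusted p = 0.999) and with the 26 genes kept in the clustering (2.15 ± 0.54, adjusted p = 0.625). Leaving out 1 library gave 2.00 without knockout 1 (adjusted p = 0.937), 3.23 without knockout 2 (adjusted p = 0.955), 4.70 without control 1 and 1.94 without control 2. Gm14851 had 4026 and 3106 CPM in knockouts, against 2225 and 1644 CPM in controls (1.04 ± 0.20, adjusted p = 0.00815). Defa29, the remaining gene of this type, had 4522 and 2874 CPM in knockouts, against 2720 and 1638 CPM in controls (0.92 ± 0.23, adjusted p = 0.103). Groups did not overlap for any of the 3.

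Counts of these genes, and of several usual cryptdins, rested on few cells. The 10% of Paneth-like cells with most UMIs of a gene (8 and 9 cells in knockouts, 7 and 5 in controls) held 79.3 and 81.2% of Gm14851 UMIs in knockouts, against 88.9 and 97.8% in controls. For AY761184 they held 54.8 and 68.2% in knockouts, against 77.4 and 93.3% in controls. For Defa21 they held 54.5 and 57.1% in knockouts, against 76.9 and 96.2% in controls, and for Defa27 59.5 and 64.3%, against 93.9 and 95.4%. Gm15293 had 52.5 and 49.9% in knockouts, against 78.3 and 89.5% in controls, and Defa5 46.5 and 47.3%, against 68.1 and 87.6%. Defa24 was spread more widely, with 22.8 and 22.1% in knockouts, against 29.5 and 34.9% in controls. After thinning each cell to 5000 UMIs, AY761184 was detected in 66.7 and 57.9% of Paneth-like knockout cells, against 52.7 and 23.5% of control cells. Thinning left out 4 and 10 knockout cells and 12 and 9 control cells, and the unthinned shares were 71.2 and 67.4% in knockouts, against 53.7 and 27.9% in controls. In enterocyte-like cells the thinned share of AY761184 was 0 and 0.568% in knockouts, against 1.5 and 0% in controls.

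Among cryptdin genes of the usual type, Gm15293 (Defa41 in RefSeq) had 1151 and 883 CPM in Paneth-like knockout cells, against 526 and 399 CPM in control cells (1.30 ± 0.20, adjusted p = 0.000790). Defa23 had 591 and 418 CPM in knockouts, against 245 and 212 CPM in controls, the same fold change and adjusted p. Defa22 had 25970 and 23990 CPM in knockouts, against 18480 and 11740 CPM in controls (0.87 ± 0.20, adjusted p = 0.0419). Defa5 had 1297 and 1093 CPM in knockouts, against 643 and 737 CPM in controls, and Defa34 had 1761 and 1206 CPM in knockouts, against 841 and 968 CPM in controls. They gave 0.96 ± 0.18 and 0.89 ± 0.19 (adjusted p = 0.00782 and 0.0343). Over the last 200 bases of the transcript at most 0.5% of the stretches of Defa5, Defa23 and Defa34 occur in no other gene, so these calls cannot be assigned to 1 copy. Defa22 and Defa5 turned to −0.13 and −0.10 with the 26 genes kept in the clustering.

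Among the abundant genes, several passed with the block alone. Defa24 gave 0.39 ± 0.17 with the group alone, short of the threshold, and 0.39 ± 0.10 with the block (adjusted p = 0.0127). Itln1 had 60410 and 52590 CPM in knockouts, against 49350 and 42370 CPM in controls, and gave 0.46 ± 0.11 with the block (adjusted p = 0.00212). Lyz1 had 51660 and 45130 CPM in knockouts, against 40030 and 37130 CPM in controls (0.49 ± 0.11 with the block, adjusted p = 0.000950). Defa30, with 51480 and 46490 CPM in knockouts, against 43960 and 24840 CPM in controls, and Defa21, with 13640 and 16000 CPM in knockouts, against 11810 and 11000 CPM in controls, gave 0.73 ± 0.11 and 0.54 ± 0.11 with the block (adjusted p = 8.22e-09 and 0.000318). Ang4, with 10270 and 11080 CPM in knockouts, against 7252 and 10710 CPM in controls, gave 0.44 ± 0.11 with the block (adjusted p = 0.0120). Mmp7, the processing enzyme, had 4179 and 4462 CPM in knockouts, against 4193 and 4171 CPM in controls, and passed in neither fit (0.21 ± 0.17 with the group alone). The fits use TMM scaling, whereas CPM divide by all UMIs of the class. Fitted fold changes in Paneth-like cells lie above the ratios of the CPM given beside them.

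Defa17 ran the other way inside the class, with 9162 and 5893 CPM in Paneth-like knockout cells, against 14750 and 8080 CPM in control cells. The groups overlapped, while each knockout lay below the control of its mouse (−0.41 ± 0.11 with the block, adjusted p = 0.0269; −0.45 ± 0.23 with the group alone). The value was 0.14 without control 1. Defa3, whose coding sequence is identical to that of Defa17, had 921 and 702 CPM in knockouts, against 819 and 662 CPM in controls. Defa26 (2088 and 1849 CPM in knockouts, against 1808 and 922 CPM in controls), Defa27 (359.9 and 319 CPM, against 226 and 228 CPM) and Defa36 (2329 and 1578 CPM, against 1542 and 1085 CPM) rose with the block alone, by 0.73 to 0.76 on the log2 scale, as did Defa29 (0.93 ± 0.12). Defa2, Defa3, Defa20, Defa28, Defa32, Defa35, Mmp7 and Pnliprp2 passed in neither fit, with group-only values from −0.39 to 0.57.

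The sum of the 21 defensin-type genes does not depend on how the counted reads were split among them. Reads dropped between copies, or placed on relatives outside the 21, still affect it. The 21 genes held 31.0 and 27.5% of Paneth-like UMIs in knockouts, against 26.1 and 20.5% in controls. The sum gave 0.49 ± 0.14 with the group alone (adjusted p = 0.327), whereas the block fit gave 0.50 ± 0.08 (adjusted p = 1.27e-06). Over all cells the sum gave −0.21 ± 0.20 with the group alone (adjusted p = 0.738), while the block fit gave −0.23 ± 0.13 (adjusted p = 0.288). In the other cells its sign was opposite to that in Paneth-like cells, and it fell with the block (−0.71 ± 0.15, adjusted p = 0.0181) but did not pass with the group alone (−0.76 ± 0.28, adjusted p = 0.557). In goblet-like cells it gave −0.24 ± 0.17 with the group alone (adjusted p = 0.875) and −0.25 ± 0.19 under the block (adjusted p = 0.693).

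**Figure D4:**
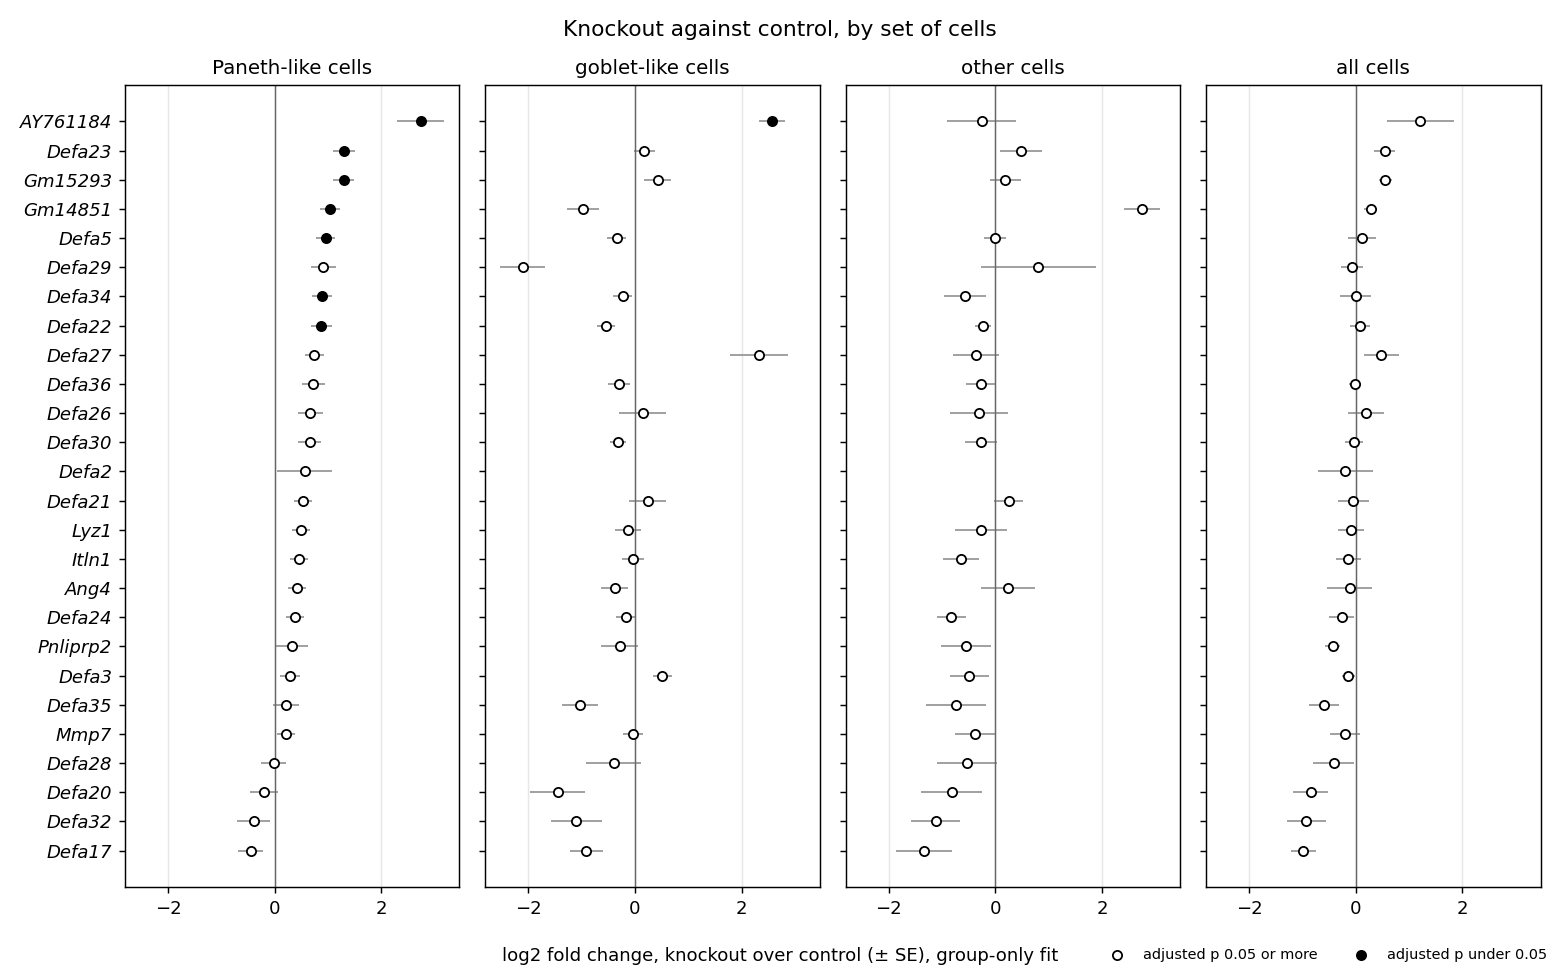
Log2 fold change of each granule gene, knockout over control, with its SE, from the group-only edgeR fit in Paneth-like, goblet-like, other and all cells. Filled points passed an adjusted p of 0.05: 7 genes in Paneth-like cells and AY761184 in goblet-like cells, and none in other cells or all cells.

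In goblet-like cells 25 of the 26 genes passed the filter on low counts, and 1, AY761184, rose with the group alone, where 0.0463% of 8632 genes were called higher and 0% lower. AY761184 had 718 and 499 CPM in goblet-like knockout cells, against 119 and 79.6 CPM in control cells (2.57 ± 0.24, adjusted p = 0.00557). Leaving out 1 library gave 2.26 to 2.91, but each such fit has 1 sample in an arm and takes its spread from the other group, so it is no check of the call. It did not pass when likely doublets were kept, the 26 genes entered the clustering or the coarser resolution was used (1.5, 0.03 and 1.52). With the block 2 genes rose, the other being Defa27 at 39.1 and 109 CPM in knockouts, against 28.2 and 7.91 CPM in controls (2.38 ± 0.44, adjusted p = 0.0170), and 2 fell, against 0.359% of all genes higher and 0.255% lower. The Defa27 counts were 26 and 473 UMIs in knockouts, against 33 and 17 UMIs in controls, so its rise rests mainly on knockout 2. The 2 that fell were Defa29, at 298 and 219 CPM in knockouts, against 1590 and 520.2 CPM in controls (−1.84 ± 0.23, adjusted p = 0.000670), and Defa35, at 94.8 and 36.0 CPM in knockouts, against 121 and 105.2 CPM in controls (−1.08 ± 0.21, adjusted p = 0.0218). Defa29 was detected in only 17.0 and 16.8% of goblet-like knockout cells, against 17.3 and 13.0% of control cells. Granule shares of single goblet-like cells reached 59.4 and 40.8% in knockouts, against 49.5 and 61.2% in controls. The part of such cells in these falls was not tested. Gm14851 and Defa22, which rose in Paneth-like cells, had both knockouts below both controls here and passed in neither fit (−0.98 ± 0.30 and −0.55 ± 0.17 with the group alone). Goblet-like cells numbered 47 and 202 in knockouts and 52 and 54 in controls, so knockout 2 holds most of the class. The cluster richest in granule transcripts, led by Reg4 and Mptx2, gave 14 and 71 of those cells in knockouts and 11 and 7 in controls. The mix of clusters therefore differed between libraries, and its part in the goblet-like values was not tested.

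Goblet markers inside the Paneth-like class were counted beside these results. All 12 were detected in each library and together held 4.94 and 5.46% of UMIs in knockouts, against 5.36 and 6.18% in controls. Of the UMIs outside the 26 genes they held 8.78 and 8.94% in knockouts, against 8.42 and 8.81% in controls, so the order of the groups changes with the denominator. With the group alone 3 of 12 fell and none rose, and with the block 4 fell and 2 rose, Spink4 and Ccl9. The 3 were Zg16, at 97.8 and 86.9 CPM in knockouts, against 378 and 804 CPM in controls (−2.49 ± 0.24, adjusted p = 4.57e-07), Clca1 (−2.40 ± 0.30, adjusted p = 4.87e-05) and Fcgbp (−1.21 ± 0.18, adjusted p = 0.000538). Zg16 is a lectin of mucus, Clca1 a secreted mucus protease and Fcgbp a mucus protein. Their part in the granule gene values was not tested.

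In the other cells 0 of 25 genes passed with the group alone, where 0% of 13125 genes did. With unadjusted p under 0.05 there were 2 of 25, where 1149 of the 13125 genes had such a p. DESeq2 called 1, Gm14851, where it called 21 of 19190 genes higher and 95 lower. With the block 1 rose and 2 fell, against 1.26% of all genes higher and 4.75% lower. The 1 that rose was Gm14851, with 14.4 and 13.3 CPM in knockouts, against 2.64 and 1.34 CPM in controls (2.76 ± 0.23, adjusted p = 0.0112). In knockouts most of its UMIs lay in the 3 unnamed clusters: without them it had 2.92 and 0.888 CPM in knockouts, against 1.89 and 0.693 CPM in controls. Defa17 fell, with 154 and 92.9 CPM in knockouts, against 445 and 164 CPM in controls (−1.22 ± 0.18, adjusted p = 0.0307). Pnliprp2 fell too, with 13.5 and 26 CPM in knockouts, against 20.1 and 36.0 CPM in controls (−0.56 ± 0.10, adjusted p = 0.0472). In the enterocyte-like cells among them it was higher in the knockout of each mouse, at 109 and 236 CPM, against 67.1 and 118 CPM. An enterocyte-like cluster of 428 cells made up 3.07 and 8.09% of cells in knockouts, against 4.35 and 25.5% in controls. The part of this mix in the Pnliprp2 values was not tested. Defa24 had 2796 and 2463 CPM in other knockout cells, against 5825 and 3290 CPM in other control cells, and without the unnamed clusters 204 and 214 CPM in knockouts, against 373 and 371 CPM in controls. The part of free RNA and misplaced cells in the values of other cells was not tested.

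The knockout effect itself differed between Paneth-like and other cells for 5 of 26 genes, tested as an interaction in edgeR with the library as a block. Counts in the other cells can include free RNA and misplaced cells, so a difference need not lie in expression by those cells. The effect was higher in Paneth-like cells for 4, where 0.182% of 12059 genes were, and lower for 1, where 0.058% were. AY761184 differed by 3.15 ± 0.26 on the log2 scale (adjusted p = 2.12e-11), Defa34 by 1.39 ± 0.25 (adjusted p = 0.00261), Defa24 by 1.14 ± 0.26 (adjusted p = 0.0339) and Defa22 by 1.14 ± 0.25 (adjusted p = 0.0290). Gm14851 differed by −1.78 ± 0.27 (adjusted p = 8.13e-05). Without the unnamed clusters AY761184 differed by 1.44 ± 0.30 (adjusted p = 0.00881), Defa34 by 0.92 ± 0.34 (adjusted p = 0.558) and Gm14851 by 0.58 ± 0.33 (adjusted p = 0.926). Without the library block 0 genes passed. Leaving out 1 library left 2 genes called without knockout 1, 2 without knockout 2, 11 without control 1 and 6 without control 2, and AY761184 gave 2.73 to 3.61.

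Levels of granule genes also varied together from cell to cell inside each library, as a description over Paneth-like cells that share a library and differ in depth. Defa24 and Defa17 had Spearman correlations of 0.882 and 0.820 in knockouts, and 0.847 and 0.893 in controls. Defa21 and Defa22, whose promoters are identical and whose coding sequences match at 99.3% of positions, had 0.806 and 0.853 in knockouts, and 0.786 and 0.823 in controls. Gm14851 and Defa29 had 0.792 and 0.803 in knockouts, and 0.744 and 0.616 in controls. Mmp7 and Defa21 were near 0 in every library, between −0.1 and 0.0754. Pairs of near copies can share reads, and the part of that in these values was not tested.

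Other genes of the Paneth cell were counted in lists that exclude the 26. Of 17 tested factors of Paneth maturation and secretory fate, such as Sox9, Atoh1 and Spdef, 0 passed in Paneth-like cells with the group alone, and 1, the TCF factor Tcf7l2, fell with the block, with 44.98 and 46.9 CPM in knockouts, against 80.6 and 83.2 CPM in controls (−0.67 ± 0.20, adjusted p = 0.0497). Sox9, which Paneth cells require, had 83.1 and 88.7 CPM in knockouts, against 169 and 99.0 CPM in controls, and passed in neither fit. Of 8 surface and niche factors 0 passed in either fit, with Cd24a at 1158 and 1022 CPM in knockouts, against 1217 and 934 CPM in controls. Of 17 genes of granule packaging, secretion and autophagy, 1 rose in both fits, the coatomer gene Copz2, with 59.6 and 66.9 CPM in knockouts, against 28.3 and 37.7 CPM in controls (1.10 ± 0.24, adjusted p = 0.0376).

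Of 14 further Paneth products and defensin relatives, 1 rose with the group alone and 6 with the block, where 0.272% and 1.04% of all genes did. The 1 was the defensin gene Gm15292, at 253 and 225 CPM in knockouts, against 127 and 60.5 CPM in controls (1.50 ± 0.25, adjusted p = 0.00162). The others were Clps, a colipase, with 4042 and 1773 CPM in knockouts, against 2271 and 1019 CPM in controls, Mptx2, Reg3g, Gm7849 and Spink4, which is also a goblet marker. Mptx2 had 313 and 22.6 CPM in knockouts, against 133 and 25.4 CPM in controls, so knockout 2 lay below control 2. Reg3g had 12.7 and 133 CPM in knockouts, against 6.86 and 50.8 CPM in controls. Clps and Mptx2 are among the markers that named the class. Clps gave 0.98 ± 0.12 with the block (adjusted p = 5.38e-13), and 0.97 ± 0.29 with the group alone (adjusted p = 0.385). Their median with the group alone was 0.58, against −0.01 for all genes. Over all cells the same list had 0 calls with the group alone, and with the block 6 of 16 fell and none rose, where 8.3% of all genes fell. The 6 were Ang, Reg3a, Reg3b, Reg3g, Guca2a and Guca2b. Of these, Guca2a is also a goblet marker, and Reg3a and Reg3b were not among the genes tested in Paneth-like cells. Clps, Mptx2 and Gm7861, which lead the Paneth-like cluster, passed in neither fit over all cells.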

How the data were processed

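The deposited files are whole-number UMI count matrices, which the authors made with Cell Ranger; the submitters' processing notes give version 3.0.1 and the build mm10, and the file headers give 3.0.0. Strand setting and annotation release are not given in the sources used here. Barcodes under 500 genes were left out, and the highest Scrublet scores were removed at 0.8% per 1000 barcodes, because its automatic threshold marked 19 barcodes. Cells were scaled to 10000, reduced to 2000 variable genes without the 26 genes and 30 components (15 neighbours, scanpy 1.11.5), and clustered with Leiden at resolution 2. Resolution 1, first planned, gave no Paneth-like cluster. Naming limits were a marker score of 0.5, 3 detected markers and, added after the data were seen, at least 1 own marker among the top 10 genes.

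UMI counts summed per library and class were tested two-sided with edgeR 4.0.16 (quasi-likelihood, TMM, filterByExpr, Benjamini-Hochberg over all genes tested), with the group alone, and with the replicate number as a block. The numbers pair the samples: the design text gives 2 mice and the deposited files carry 1 mouse tag per number. Libraries of the same number deviated together from their group means, with a correlation of 0.665 in all, 0.197 in Paneth-like, 0.198 in goblet-like and 0.663 in other cells. The group-only p-values measure the spread between 2 libraries per group. In the block fit they measure how far the effect differs between the 2 mice. In the interaction they measure how far the class difference varies between libraries of a group. All these fits borrow spread from other genes, so a very small p-value does not stand for more than 2 libraries per group. DESeq2 1.42.0, other filters and scalings, another clustering and each library left out were tried. The edgeR fits with and without the block were tested on simulated data for all, Paneth-like, goblet-like and other cells. The simulated counts had the same dispersion for every gene and no effect of the mouse. The interaction, DESeq2 and the permutation test were not simulated. Values are given for the 10 genes with most UMIs, for genes that passed in any class and fit, and for those at the UMI minimum. The genes, lists and rules were chosen with earlier results of these data known.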

Additional observations from a re-analysis of the deposited data

Results flagged for a closer look

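The knockout effect differed between Paneth-like and other cells by an edgeR interaction test for 5 of 26 granule genes. Of 12059 genes, 0.182% were higher in Paneth-like cells and 0.058% lower, and without the library block 0 genes passed. The differences, on the log2 scale, were 3.15 for AY761184, 1.39 for Defa34, 1.14 for Defa24, 1.14 for Defa22 and −1.78 for Gm14851. The unnamed clusters near Paneth and goblet cells were then left out of the other cells. In that fit 7 granule genes differed and all were higher in Paneth-like cells, where 32 of 11916 genes were higher and 11 lower. AY761184 (1.44) was among the 7, while Defa34 and Gm14851 no longer passed. Counts in the other cells can include free RNA and misplaced cells. Cause was not tested for any of these differences.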

How the results depend on the processing

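Of 26 granule genes, group-only calls numbered 0 in all cells, 7 in Paneth-like, 1 in goblet-like and 0 in other cells. The interaction, fitted with the library as a block, gave 5. The replicate block gave 6, 18, 4 and 3 calls in those 4 sets of cells. With library sizes that exclude the granule genes, added after seeing the data, the block gave 6, 18, 6 and 3. DESeq2 gave 1 in all cells, 1 in other cells and 11 in the interaction. No filter on low counts gave 11 in Paneth-like and 8 in goblet-like cells. Leaving out 1 library gave 0 to 12 calls in Paneth-like cells (0 without knockout 1, 0 without knockout 2, 12 without control 1) and 2 to 11 in goblet-like cells. With the granule genes kept in the clustering, 0 were called in Paneth-like and 0 in goblet-like cells. Resolution 1 gave 0 in goblet-like cells and no Paneth-like class, hence no value for it. Keeping likely doublets and cells above 200 genes gave 0 in goblet-like cells. Other cells without the unnamed clusters (added after seeing the data) gave 5 calls with the block, and the interaction without the library block gave 0.

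With the granule genes kept in the clustering, the Paneth-like share of granule UMIs differed by −1.07 percentage points (8.18 as reported) and the share of Paneth-like cells by 1.28 (−1.57 as reported). Defa22 and Defa5 turned to −0.13 and −0.10 in that class. In goblet-like cells at resolution 1 the granule share differed by 0.857 points (−1.22 as reported). Mmp7 in other cells turned to 0.58 without the unnamed clusters and with the block, and the Gm14851 interaction to 0.58 without them. The cause was not tested. Leaving out 1 library of the interaction, added after seeing the data, gave 2 to 11 calls. Leaving out both libraries of a mouse was not run, since no residual degrees of freedom remained. In fits that leave out 1 library of a class, the lone sample is assumed to vary like the other group. With 2 libraries per group and 43 to 86 Paneth-like cells each, single genes carried by few cells rest on little data.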
